A study of Homo sapiens with 7 samples.

Results

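Divergent gene TSS pairs are 2 called gene transcription start sites (TSSs) on opposite strands, from which the genes are transcribed away from each other. A gene TSS was counted as a member if another called gene TSS lay 1 to 1000 nt upstream of it on the opposite strand of the same chromosome. The rule found 1198 members among 10391 gene TSSs (11.5%, exact 95% interval 10.9 to 12.2), and they formed 602 pairs. Of the members, 1192 stood in 1 pair and 6 stood in more than 1. Members were named by a GENCODE transcript start within 1000 nt on the same strand, with protein-coding genes taken first. By this order 1183 members had a protein-coding gene, 12 had a long noncoding RNA and 3 had no GENCODE start in that range.

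The cells were T-47D/A1-2, a derivative of the T-47D luminal breast cancer line that overexpresses rat glucocorticoid receptor and carries a luciferase reporter driven by the mouse mammary tumor virus promoter. They were grown in DMEM with 10% fetal bovine serum, and for 24 h or longer before harvest the medium held 5% serum stripped with charcoal dextran. This 1 condition was shared by every sample, so the data hold no treated group. TSSs had been called from the first of 2 Start-seq libraries, in which short capped nuclear RNA is sequenced and the 5' end of each read marks an initiation site. Poly-A enriched RNA-seq in 3 replicates had been merged into 1 FPKM value per gene (fragments scaled to transcript length and to all mapped fragments). With 1 library of calls and 1 merged value per gene, no spread between replicates could be measured, and the intervals given here cover counting error over sites only. The luminal markers GATA3 (360 FPKM), FOXA1 (113 FPKM), ESR1 (44.1 FPKM) and KRT8 (1142 FPKM) were high. The leukocyte marker PTPRC (0.0208 FPKM), the endothelial marker PECAM1 (0.00291 FPKM) and the basal keratins KRT5 and KRT14 (both listed at 0) were at or near 0, VIM stood at 0.864 FPKM and the fibroblast gene COL1A1 at 8.82 FPKM.

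A divergent pair places the upstream promoter regions of both genes in the same short stretch of DNA, often within a CpG island, and factors bound there can act on both. Many such genes have housekeeping roles in DNA repair, mitochondrial function and chromatin. At most other mammalian promoters the upstream antisense strand also initiates, but there the product is a short unstable RNA. Its start is the upstream antisense TSS (uaTSS), and a start on the antisense strand downstream of the gene TSS is a downstream antisense TSS (daTSS).

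The sequences between the partners carried the shared features described further on, so 8 of them are printed here, with the plus-strand gene named first. Each is the longest stretch between the called TSSs that no GENCODE exon covers, from the plus strand of GRCh37 (hg19), read from the minus-strand gene toward the plus-strand gene. Capitals mark matches, on either strand, to the letters searched: CCAAT (the box bound by NF-Y), GGGCGG (the GC box bound by SP factors), CCGGAAG (the ETS family), TGACGT (within the cyclic AMP response element), GCATGCG (within the NRF1 site), CACGTG (the E box), ATGGCGG (within the YY1 site) and CTCGCGA. A match is a description of the letters and not a measured binding site. Counts of letters and of GC between partners further on cover all bases between the called TSSs, exons included. In 594 of 602 pairs an annotated exon lay there, and the median share of these bases in an exon was 57.8%. The first 3 pairs are histone genes (chr1:228645575-228645803, chr6:27114635-27114884 and chr6:27860964-27861202), chosen because every histone pair held several CCAAT boxes.
HIST3H2BB/HIST3H2A: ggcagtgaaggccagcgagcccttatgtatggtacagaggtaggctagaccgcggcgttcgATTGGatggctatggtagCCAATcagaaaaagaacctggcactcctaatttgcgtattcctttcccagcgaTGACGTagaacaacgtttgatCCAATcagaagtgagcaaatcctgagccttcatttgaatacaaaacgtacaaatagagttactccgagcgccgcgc
HIST1H2AH/HIST1H2BK: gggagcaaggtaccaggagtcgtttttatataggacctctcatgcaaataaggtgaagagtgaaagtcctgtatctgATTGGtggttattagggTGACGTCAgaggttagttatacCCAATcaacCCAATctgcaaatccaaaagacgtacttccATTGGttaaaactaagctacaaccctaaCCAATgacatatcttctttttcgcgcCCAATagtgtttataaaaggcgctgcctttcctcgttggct
HIST1H2BO/HIST1H2AM: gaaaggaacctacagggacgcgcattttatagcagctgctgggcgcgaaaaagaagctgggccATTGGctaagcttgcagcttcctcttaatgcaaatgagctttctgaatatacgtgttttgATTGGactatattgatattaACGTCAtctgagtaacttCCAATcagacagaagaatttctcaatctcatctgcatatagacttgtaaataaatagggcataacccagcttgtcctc

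The next 3 stretches, from pairs that hold no histone gene, also have 4 or 5 CCAAT boxes (chr19:39421404-39421583, chr12:21654604-21654714 and chr17:79212892-79213104). MRPS12 encodes a mitochondrial ribosomal protein and SARS2 the mitochondrial seryl-tRNA synthetase, RECQL a DNA helicase, and C17orf89 the complex I assembly factor now named NDUFAF8.
MRPS12/SARS2: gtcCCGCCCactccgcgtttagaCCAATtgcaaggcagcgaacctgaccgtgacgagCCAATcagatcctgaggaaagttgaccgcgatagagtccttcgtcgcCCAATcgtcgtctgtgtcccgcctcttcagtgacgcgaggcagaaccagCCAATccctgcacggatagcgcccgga
GOLT1B/RECQL: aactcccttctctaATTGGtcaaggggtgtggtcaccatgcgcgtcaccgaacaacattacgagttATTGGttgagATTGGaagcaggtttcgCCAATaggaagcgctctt
C17orf89/ENTHD2: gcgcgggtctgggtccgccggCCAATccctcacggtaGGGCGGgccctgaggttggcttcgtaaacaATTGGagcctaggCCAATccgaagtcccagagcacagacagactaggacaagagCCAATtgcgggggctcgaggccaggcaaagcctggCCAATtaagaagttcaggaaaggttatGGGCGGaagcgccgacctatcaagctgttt

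The last 2 show the ETS letters in a short pair that holds a complex I gene (chrX:119005697-119005794) and a GC-rich gap with only GC boxes (chr9:136243038-136243236). The last belongs to the pair whose partners differed most in RNA level among pairs with both partners at 1 FPKM or more.
NDUFA1/RNF113A: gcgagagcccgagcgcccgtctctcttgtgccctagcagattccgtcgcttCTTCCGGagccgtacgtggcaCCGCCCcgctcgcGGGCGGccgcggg
STKLD1/SURF4: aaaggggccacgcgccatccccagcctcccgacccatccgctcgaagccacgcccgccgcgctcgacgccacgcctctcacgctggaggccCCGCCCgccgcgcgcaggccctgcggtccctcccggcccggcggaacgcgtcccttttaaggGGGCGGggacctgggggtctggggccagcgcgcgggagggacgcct

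Called TSSs of partners were close together. The median distance was 267 nt (95% interval 254 to 290, n = 602 pairs), with quartiles of 168 and 441 nt. Pairs were most frequent at 151 to 200 nt, where 77 of them fell, and 61 (10.1%) lay within 100 nt. Beyond 500 nt they became sparse: the first 500 nt held 488 pairs and the next 500 nt held 114, while called divergent pairs outside the rule numbered 42 at 1001 to 1500 nt and 18 at 2501 to 3000 nt. The widest pair inside the limit was CDCA2/KCTD9 at 978 nt and the nearest one outside it was CBX3/HNRNPA2B1 at 1003 nt.

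**Figure D1:**
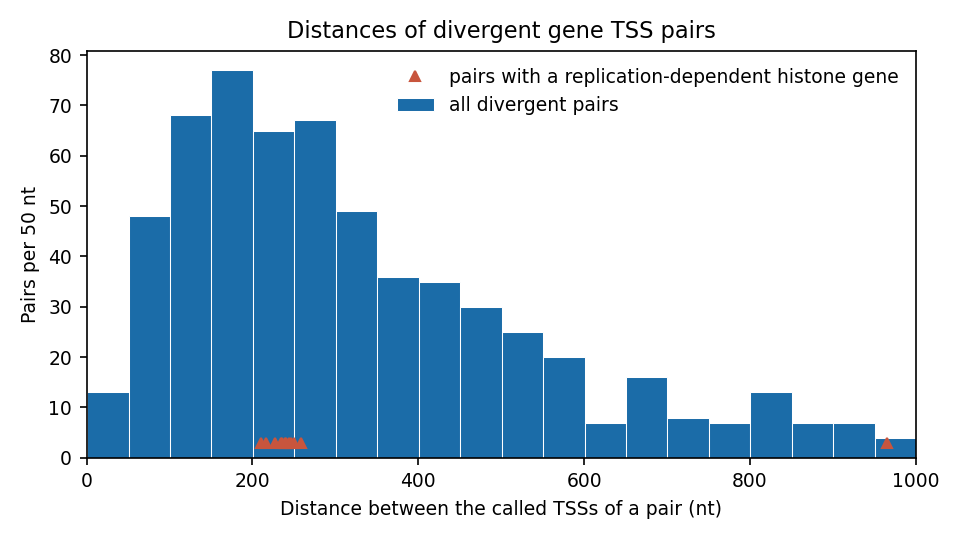
Bars count the 602 divergent pairs per 50 nt of distance between their called TSSs (horizontal axis, nt). Triangles mark the 12 pairs with a replication-dependent histone gene, of which 11 lie between 210 and 259 nt and 1 at 965 nt, while all pairs together peak at 151 to 200 nt.

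In the shortest pairs both genes started at almost the same place. DTX3L, a ubiquitin ligase, and PARP9, its ADP-ribosyltransferase partner protein, started from adjacent bases 1 nt apart. NDOR1/TMEM203 followed at 6 nt, GNPAT/C1orf131 at 18 nt, MIER1/WDR78 at 29 nt and GPN1/CCDC121 at 30 nt. None of their TSSs had a called uaTSS or daTSS, and over all members in pairs within 100 nt the shares were 1.64 and 5.74%. DTX3L and PARP9 stood at 17.4 and 30.7 FPKM, a ratio of 1.77, whereas GPN1, a GTPase involved in RNA polymerase II import, stood at 35.8 FPKM and CCDC121 at 4.04 FPKM, a ratio of 8.86. The widest pairs after CDCA2/KCTD9 were RDH10/RPL7 at 970 nt, SPTBN4/BLVRB at 967 nt, HIST1H2BH/HIST1H3F at 965 nt and ZBTB1/ZBTB25 at 941 nt. BLVRB, a biliverdin reductase, stood at 214 FPKM and SPTBN4, a spectrin of neurons, at 0.846 FPKM.

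The calls stayed near the annotation. Of 1195 members with an annotated start, 988 (82.7%, 80.4 to 84.8) were called within 50 nt of it, against 73.8% of 9171 other gene TSSs. The study divided overlapping search windows of different genes midway between their annotated starts, which left members less room upstream. Its part in this difference was not tested. The distance between the annotated starts of the named genes had a median of 242 nt (228 to 255, n = 599). In 9 pairs these starts overlapped although the calls did not. A further 153 pairs of calls faced each other the other way, with the minus-strand TSS up to 1000 nt past the plus-strand TSS, and were not members. Members made up 18.2% of gene TSSs on chromosome 14 (14.4 to 22.6), 15.5% on chromosome 17 (12.8 to 18.6), 6.88% on chromosome X (4.36 to 10.2) and 4.30% on chromosome 21 (1.18 to 10.6).

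Gene groups entered divergent pairs at different rates. Over all 9905 genes with a called TSS, 12.0% were divergent. Replication-dependent histone genes, which supply chromatin during S phase, stood highest at 22 of 46 genes (47.8%, 32.9 to 63.1). They were followed by the NDUF genes, which encode subunits and assembly factors of respiratory complex I, at 16 of 41 (39.0%, 24.2 to 55.5) and by DNA repair genes at 20 of 63 (31.7%, 20.6 to 44.7). Mitochondrial ribosomal proteins reached 15 of 71 (21.1%, 12.3 to 32.4). These 4 intervals lay above the share of all genes, and no test over genes was run. The intervals treat genes as independent, but 10 pairs joined a histone gene with another, so the histone interval is too narrow.

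Other lists lay nearer to the background or below it. Cytosolic ribosomal proteins gave 13 of 77 (16.9%, 9.31 to 27.1), DNA replication genes 8 of 45 (17.8%, 8.0 to 32.1), aminoacyl-tRNA synthetases 5 of 33 (15.2%, 5.11 to 31.9) and proteasome subunits 3 of 34 (8.82%, 1.86 to 23.7). The families named by sequence feature, CCDC and TMEM, gave 13 of 79 (16.5%, 9.06 to 26.5) and 21 of 147 (14.3%, 9.07 to 21). Of the RNA polymerase II subunits, POLR2H alone was divergent among 11 with a call, and none of the 7 luminal markers with a call was a member. Zinc finger ZNF genes, mostly transcriptional repressors that lie in clusters, stood below the background at 24 of 381 (6.30%, 4.08 to 9.23).

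**Figure D2:**
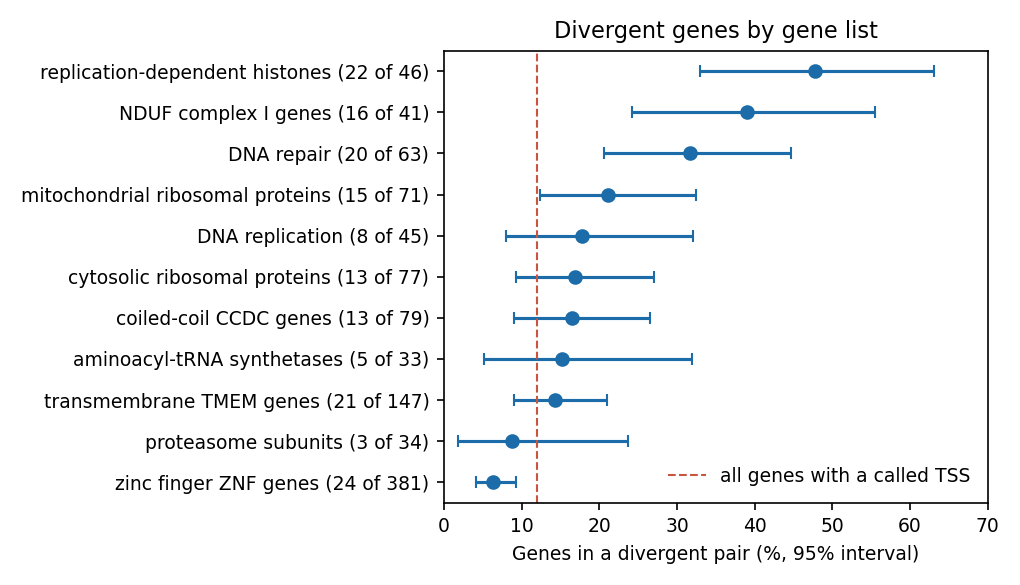
Points give the percent of genes with a called TSS that stood in a divergent pair for each list of 30 or more such genes, with exact 95% intervals (horizontal axis, percent) and counts beside the names. The dashed line is the 12.0% of all 9905 genes; histones, NDUF genes, DNA repair genes and mitochondrial ribosomal proteins lie above it and ZNF genes below it.

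The histone pairs were the most alike. Histones were named in 12 pairs: 10 joined a histone gene with another histone gene, and in 2 the partner of HIST1H2AD or HIST1H2AE stayed unnamed. These 2 partners had no GENCODE start within 1000 nt. The study called gene TSSs around RefSeq mRNA starts, so a RefSeq gene that the naming missed should lie at each. If these are histone genes, the counts of divergent histone genes and of histone-histone pairs are too low. Apart from HIST1H2BH/HIST1H3F at 965 nt, all 12 pairs lay between 210 nt (HIST1H2BN/HIST1H2AK) and 259 nt (HIST1H2AE). All 12 held 3 or more CCAAT boxes between the partners, as the 3 printed sequences show, whereas 75 of all 602 pairs did (12.5%, 9.93 to 15.4) and 21.2% of the 132 pairs at 201 to 300 nt (14.6 to 29.2). GC content between histone partners ranged from 34.1 to 48.9%, against a median of 64.8% over all pairs, and a GC box occurred in 1 of 12 against 443 of 602.

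TATA letters were also concentrated there. TATAA lay within 35 to 21 nt before the call at 25 members (2.09% of 1198), against a background of 2.43% of all gene TSSs. Of the 24 TSSs in histone pairs, 16 held it. daTSSs were called in 6 of the 12 histone pairs, against 80 of all 602 (13.3%). Among them HIST1H2BN/HIST1H2AK had 1 on each side, at 1127 and 854 nt downstream of the gene TSSs. Whether these positions lie inside the genes or past their ends was not examined.

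Histone RNA levels were low and unequal in the poly-A enriched libraries, which hold little of the mRNAs that end in a stem-loop without a tail. The members of the list had a median of 2.50 FPKM. HIST1H2BK, which also makes a polyadenylated form, stood at 197 FPKM, while its partner HIST1H2AH stood at 0.0814 FPKM. HIST1H2AC and HIST1H2BC were close, at 34.3 and 30.6 FPKM. HIST1H2BA, HIST1H2AA and HIST1H2BM were listed at 0, the only members so listed, although each had a called TSS. Histone genes are near-identical copies, so values of single genes are uncertain where reads could be split among them.

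The NDUF genes were highly expressed and paired with unrelated genes. Their 16 members had a median of 78.0 FPKM, from 5.62 FPKM for NDUFAF5 to 295 FPKM for NDUFB5, and no pair joined an NDUF gene with another. NDUFB5 faced MRPL47 of the mitochondrial ribosome (148 FPKM) at 141 nt, and NDUFAF2 (32.5 FPKM) faced ERCC8 (18.9 FPKM), a factor of transcription-coupled repair, at 67 nt. Some partners were nearly silent. NDUFA9 stood at 29.8 FPKM beside AKAP3, a sperm anchoring protein, at 0.0196 FPKM, and NDUFA3 at 114 FPKM beside the osteoclast receptor OSCAR at 0.317 FPKM. NDUFA8 stood at 145 FPKM beside MORN5 at 0.252 FPKM.

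DNA repair genes sat in 20 pairs with a median distance of 256.5 nt. In 15 of the 20 a CCAAT box lay between the partners, against 278 of 602 pairs (46.2%) and 56.1% of the 132 pairs at 201 to 300 nt (47.2 to 64.7). Repair pairs ranged from 67 to 723 nt. The share was not particular to them: mitochondrial ribosomal proteins had 9 of 14 pairs, while cytosolic ribosomal proteins had 3 of 13. The highest repair members were PCNA, the sliding clamp of replication, at 259 FPKM beside CDS2 at 11.1 FPKM, and XRCC6, which encodes Ku70 of end joining, at 199 FPKM beside DESI1 at 12.9 FPKM. APEX1, the abasic site endonuclease, stood at 59.5 FPKM beside OSGEP at 7.75 FPKM. CHEK2, a checkpoint kinase, was higher (21.9 FPKM) than HSCB (6.88 FPKM), and PALB2, the partner of BRCA2, was lower (11.8 FPKM) than DCTN5 (42.2 FPKM). Repair genes therefore stood on either side of their partner in level.

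Ribosomal protein genes gave a further contrast. The cytosolic members had a median of 210 FPKM and lay beside lower partners, except for RPL7, RPL9 and RPL12 among the 12 with a value. RPL36AL at 559 FPKM faced MGAT2 at 36.1 FPKM, RPL18 at 376 FPKM faced SPHK2 at 9.21 FPKM, and RPL4 at 317 FPKM faced ZWILCH at 19.9 FPKM. RPL7 (4.43 FPKM), RPL9 (5.52 FPKM) and RPL12 (19.2 FPKM) were listed far below the median, and ribosomal protein genes have many processed copies among which reads can be split. The mitochondrial members had a median of 75.1 FPKM, from 40.3 to 209 FPKM, and included 1 pair of 2 such genes, MRPS11 (51 FPKM) and MRPL46 (65.7 FPKM) at 308 nt. Of their 14 pairs, 5 (35.7%) held the ETS letters between the partners, near the 29.9% of all 602 pairs.

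Several textbook divergent pairs were among the members. HSPE1 and HSPD1, which encode the mitochondrial chaperonins HSP10 and HSP60, lay 291 nt apart at 44.6 and 160 FPKM. ATM, the DNA damage kinase, and NPAT, a coactivator of histone genes, lay 439 nt apart at 3.71 and 7.63 FPKM. TK1, the thymidine kinase of S phase, stood at 144 FPKM and AFMID, of tryptophan breakdown, at 8.92 FPKM, 497 nt away. SURF1, an assembly factor of cytochrome c oxidase, stood at 112 FPKM and SURF2 at 56.3 FPKM, 98 nt away.

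RANBP1, a regulator of the Ran GTPase, and TRMT2A, a tRNA methyltransferase, stood at 60.2 and 17.9 FPKM at 328 nt, and MRPS12 and SARS2 at 54.4 and 10.9 FPKM at 198 nt. PSMB9 of the immunoproteasome and the peptide transporter gene TAP1 lay 268 nt apart but had no usable FPKM, since the table lists them on an alternative haplotype of the major histocompatibility complex. PAICS and PPAT of purine synthesis fell outside the rule at 1190 nt (71.2 and 11.0 FPKM).

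FPKM values were found for 1177 members, and for both partners of 586 pairs. The median of the members was 20.2 FPKM (18.4 to 23.0), with quartiles of 7.92 and 45.2 FPKM, against 16.4 FPKM (15.8 to 17) for the 9046 other gene TSSs with a value and 22.7 FPKM (18.2 to 27.5) for the 292 TSSs with a value in divergent pairs at 1001 to 5000 nt. At 1 FPKM or more stood 94.8% of members (93.4 to 96.0) against a background of 94.0%. At 100 FPKM or more stood 9.69% (8.06 to 11.5) against 8.61% of all gene TSSs.

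The levels of the partners were weakly related. Across the 586 pairs Spearman's rho was 0.17, and across 145 pairs at 1001 to 5000 nt it was 0.16. All points share the same merged libraries, and pairs are not replicates. By distance, rho was 0.30 within 100 nt (n = 60), 0.07 at 101 to 200 nt (n = 143), 0.19 at 201 to 300 nt (n = 127), 0.28 at 301 to 500 nt (n = 147) and 0.08 at 501 to 1000 nt (n = 109), with no steady order.

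Unequal partners were common. After a pseudocount of 0.1 FPKM, the higher partner exceeded the lower by a median of 1.62 on the log2 scale (1.45 to 1.72), and in the wider pairs by 1.60 (1.25 to 1.81). Partners stayed within 4-fold of each other in 354 pairs (60.4%, 56.3 to 64.4), against 62.1% of the wider pairs (53.6 to 70), and differed by over 10-fold in 110 (18.8%, 15.7 to 22.2), against 15.2% (9.76 to 22.1). Both partners reached 1 FPKM in 527 pairs (89.9%), 1 of them did in 57, and neither did in 2. The plus-strand partner was the higher one in 290 pairs (49.5%, 45.4 to 53.6).

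**Figure D3:**
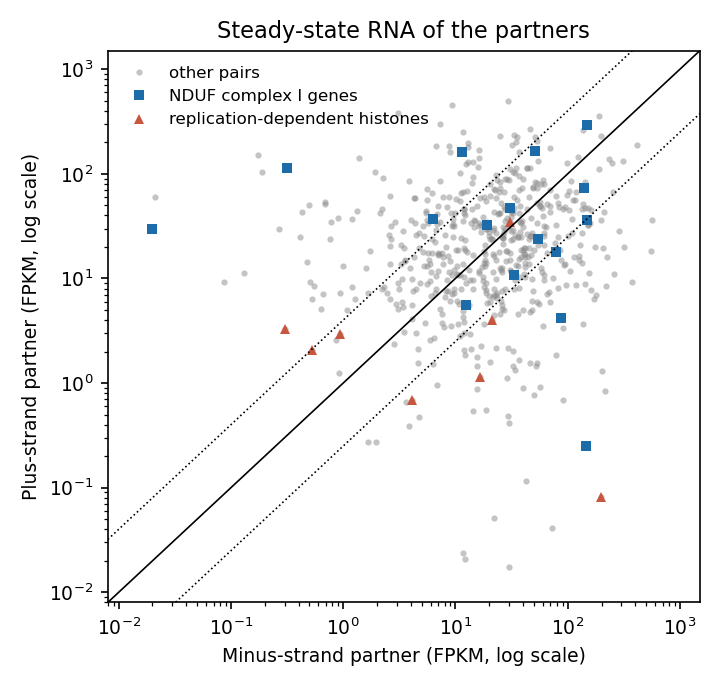
Each point is a divergent pair with both partners above 0, placed by the FPKM of its minus-strand partner (horizontal) and plus-strand partner (vertical), both on log scales. The solid line marks equal levels and the dotted lines 4-fold differences; rho over the 586 pairs with values was 0.17, and the NDUF and histone pairs lie on both sides of the solid line.

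Both partners were high in some pairs, and both reached 50 FPKM in 38. The 10 with the highest lower partner were led by CREB3L4 (232 FPKM), a membrane-bound transcription factor of the endoplasmic reticulum, and SLC39A1 (199 FPKM), a zinc importer, 117 nt apart. DYNLL1 (354 FPKM), a dynein light chain, and SRSF9 (191 FPKM), a splicing factor, lay 397 nt apart. FAU (412 FPKM), the precursor of ribosomal protein eS30, faced MRPL49 (190 FPKM) at 189 nt, and RPS25 (234 FPKM) faced the vesicle tethering gene TRAPPC4 (138 FPKM) at 430 nt.

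The others of this set were NDUFB5/MRPL47, described above, and 5 pairs of mixed function. PRDX5, a peroxidase (262 FPKM), faced TRMT112 (137 FPKM), an activator of methyltransferases, at 684 nt. TMEM258 (314 FPKM), a subunit of the oligosaccharyltransferase, faced FEN1 (132 FPKM), the flap endonuclease of DNA replication, at 295 nt. C1orf43/UBAP2L (250 and 127 FPKM), MEA1/KLHDC3 (190 and 110 FPKM) and CDC123/NUDT5 (144 and 124 FPKM) completed them. In all 10 the ratio of the partners was at most 2.37, but choosing pairs by a high lower partner itself limits the ratio.

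The 5 most unequal pairs with both partners at 1 FPKM or more differed by 49.2 times or more. SURF4, a cargo receptor of the endoplasmic reticulum, stood at 204 FPKM and STKLD1 at 1.31 FPKM, a ratio of 155. DSTN, which severs actin filaments, stood at 382 FPKM and BFSP1, a lens filament protein, at 3.05 FPKM, a ratio of 125. REEP6 (140 FPKM) faced PCSK4 (1.40 FPKM), a convertase of germ cells, and MDH1 (105 FPKM), the cytosolic malate dehydrogenase, faced WDPCP (1.93 FPKM), a gene of cilia. DBI, the acyl-CoA binding protein, stood at 457 FPKM and C2orf76 at 9.29 FPKM. A uaTSS was called in 1 of these 5 pairs, at PCSK4, and in 26.9% of all 602 pairs.

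Long noncoding partners numbered 12, and most of those with a value were low. The rules limit this number: the study called gene TSSs around annotated mRNA starts, and naming took protein-coding genes first. Of the 12, the 8 with a value ranged from 0.0509 FPKM for MED14OS, beside MED14 at 22.2 FPKM, to 29.0 FPKM for C5orf38, beside the homeobox gene IRX2 at 6.74 FPKM. C5orf38 was the only 1 of the 8 above its partner. PPP5D1 stood at 0.175 FPKM beside the calmodulin gene CALM3 at 150 FPKM, and EXOC3-AS1 at 20.2 FPKM beside EXOC3 at 80.5 FPKM.

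Antisense calls were rarer at members than elsewhere. A uaTSS was called at 194 members (16.2%, 14.2 to 18.4), against a background of 53.1% of all gene TSSs and 62.3% (56.6 to 67.8) at pairs of 1001 to 5000 nt. Those at members lay nearer to the gene TSS, at a median of 122 nt (99.0 to 137) against 204 nt (199 to 209) at other gene TSSs. No uaTSS of a member lay past the midpoint of its pair: over 195 combinations of uaTSS and pair, the greatest distance was 50% of the pair distance. The same held for 131 uaTSSs in pairs at 1001 to 3000 nt, of which 0 lay past the midpoint. For uaTSSs this limit was read from the calls, and the study's methods give a wider search upstream of every gene TSS. The methods state a midpoint limit only for the gene TSS search, where overlapping windows were divided midway between annotated TSSs.

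The comparison was therefore repeated over the same length, from the gene TSS to the midpoint of each pair. There 19.2% of other gene TSSs had their listed uaTSS, against the 16.2% of members. Only the position with the most reads in the full search was listed per gene TSS. A weaker start before the midpoint could go uncounted at the others, so their shares can be too low for an equal search. Within 100 nt the members had 1.64% (0.199 to 5.80) and the others 1.35%, and at 101 to 200 nt 6.55% (3.99 to 10.0) and 5.23%. At 201 to 300 nt members had fewer, 6.82% (4.09 to 10.6) against 13.6%. At 301 to 500 nt the shares were 22.4% (17.8 to 27.6) and 27.1%, and at 501 to 1000 nt 39.5% (33.0 to 46.2) and 43.0%. The value of the other gene TSSs lay outside the interval of the members in 1 of the 5 distance classes.

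daTSSs followed a similar limit. A daTSS was called at 85 members (7.10%, 5.71 to 8.70), against a background of 28.4%. At members they lay farther downstream of the gene TSS, at a median of 957 nt (859 to 1032) against 496 nt (481 to 513). Of the 85, 83 lay over 1000 nt from the TSS of the partner, which is transcribed from the same strand as the daTSS, and the nearest lay at 869 nt. The study's filter had removed daTSSs close to an annotated start on their own strand. Other gene TSSs, read over the window that this distance leaves, had their listed daTSS there in 11.2%. For the reason given for uaTSSs, the shares of the others can be too low. Within 100 nt members had 5.74% (2.34 to 11.5) and the others 5.31%, and at 201 to 300 nt 6.44% (3.80 to 10.1) and 8.55%. Members had fewer in the classes of 101 to 200 nt (3.10%, 1.43 to 5.81, against 6.61%), 301 to 500 nt (5.35%, 3.09 to 8.54, against 12.1%) and 501 to 1000 nt (16.1%, 11.6 to 21.6, against 22.6%).

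**Figure D4:**
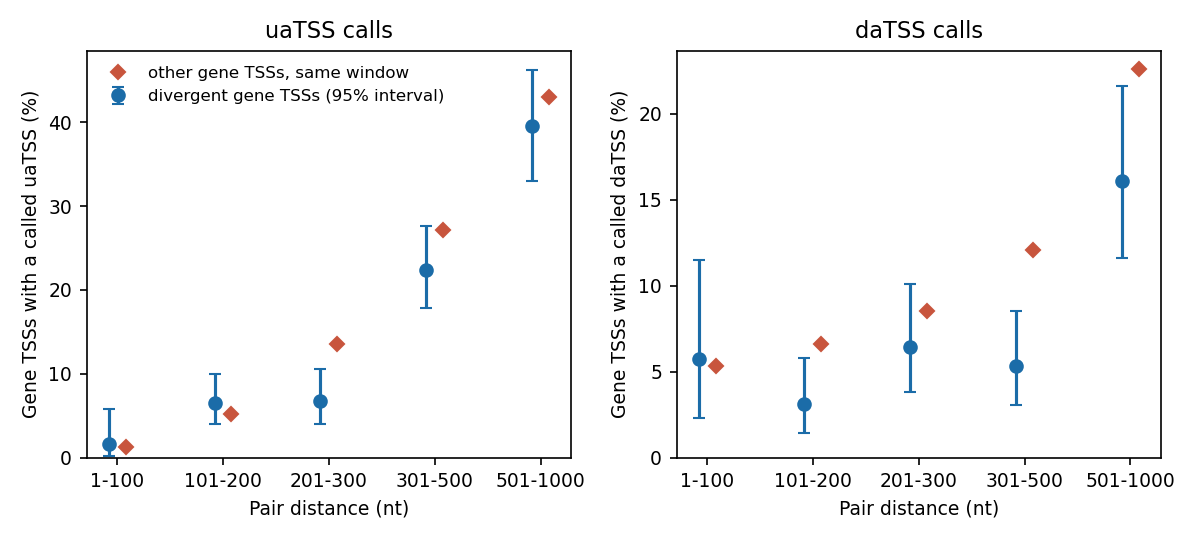
Circles give the percent of divergent gene TSSs with a called uaTSS (left) or daTSS (right) by pair distance in nt, with exact 95% intervals. Diamonds give other gene TSSs whose listed call fell in the same window, which can miss weaker starts there. The uaTSS shares rise with distance, while the daTSS shares of members stay between 3.10 and 6.44% up to 500 nt and reach 16.1% beyond. For uaTSSs the diamond leaves the interval at 201 to 300 nt (13.6% against 6.82%), and for daTSSs at 101 to 200, 301 to 500 and 501 to 1000 nt.

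Some pairs had a uaTSS for each partner. Of the 602 pairs, 33 had 2 uaTSSs, 129 had 1 and 440 had none. DYNLL1/SRSF9 had uaTSSs 173 nt upstream of DYNLL1 and 40 nt upstream of SRSF9. TRAPPC4/RPS25 had them at 142 and 96 nt, and NKIRAS2/DNAJC7 at 35 and 170 nt. FEN1/TMEM258 had them at 4 and 76 nt. MCM4/PRKDC, a helicase subunit of replication and the kinase of end joining at 113 and 46.3 FPKM, had them at 290 and 73 nt.

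Pairs with 2 daTSSs numbered 5, and 75 had 1. ATP6V1A, a proton pump subunit (49.5 FPKM), and NAA50, an acetyltransferase (37.5 FPKM), had both kinds on both sides, with uaTSSs at 69 and 107 nt and daTSSs at 417 and 700 nt. The zinc finger genes ZBTB1 and ZBTB25 (15.9 and 4.30 FPKM) also had all 4 antisense calls, with daTSSs at 844 and 1990 nt. The remaining 3 were CEP95/DDX5, C5orf38/IRX2 and HIST1H2BN/HIST1H2AK.

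The daTSS and the RNA level were compared within pairs. Among 74 pairs with 1 daTSS and both values, the partner that carried it had the higher FPKM in 50 (67.6%, 55.7 to 78.0). The study removed a daTSS if a nearby position on the strand of the gene reached a set share of the reads at the gene TSS. This filter can remove more daTSSs at genes with few reads at their TSS, and its part in the count was not tested. Over genes without uaTSSs, the study reported no significant FPKM difference with and without daTSSs. Among 126 pairs with 1 uaTSS the corresponding count was 67 (53.2%, 44.1 to 62.1). Across members the medians differed little: 25.4 FPKM (14.0 to 35.7) with a daTSS and 19.7 FPKM (18.1 to 22.7) without, and 21.5 FPKM (17.1 to 31.0) with a uaTSS and 19.9 FPKM (18.0 to 23.0) without. REEP6, the high partner of PCSK4, had a daTSS at 1367 nt, and DSTN one at 580 nt.

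Base composition differed on both sides of the TSS. In the window from 250 nt before to 50 nt after the call, the median GC content of members was 64.5% (64.1 to 65.1) against 66.4% (66.1 to 66.4), and the observed over expected CpG ratio was 0.885 (0.873 to 0.895) against 0.846 (0.842 to 0.851). Farther upstream the order of GC turned. At 500 to 451 nt before the call the mean was 61.3% at members and 53.8% at the others, where the member window reaches into the partner gene. At 450 to 499 nt after the call it was 53.4 and 60.5%. Between partners at least 50 nt apart, the median was 64.7% GC with a CpG ratio of 0.909 (n = 589).

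**Figure D5:**
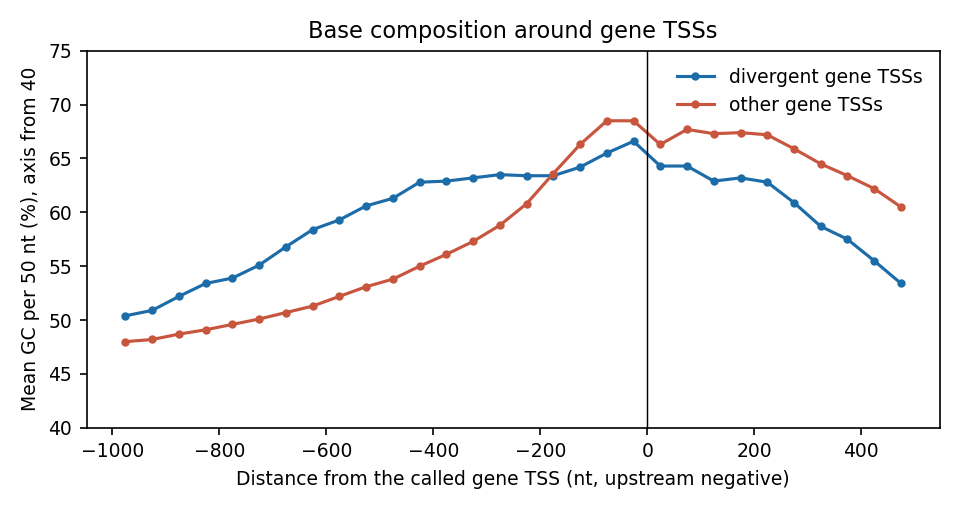
Lines give the mean GC content (vertical axis from 40%) in 50-nt bins against distance from the called gene TSS in nt, upstream negative, for the 1198 divergent and 9193 other gene TSSs. The divergent TSSs have the higher GC upstream of about 200 nt (61.3 against 53.8% at 500 to 451 nt before) and the lower GC near and after the TSS.

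ETS and CCAAT letters were more frequent at members. In the same window CCGGAAG was present at 29.1% of members, against a background of 19.7%, and CCAAT at 41.6%, against 35.3%. ATGGCGG was present at 16.4% against 11.2%, TGACGT at 13.9% against 11.2%, GCATGCG at 7.85% against 6.43%, CTCGCGA at 6.26% against 4.98% and CACGTG at 8.51% against 9.56%. The GC box was present at 71.9% (69.2 to 74.4) against 72.5%. Windows of partners overlap, and with the 600 plus-strand members alone the values were 28.5% (24.9 to 32.3) for CCGGAAG and 42.7% (38.7 to 46.7) for CCAAT. In the 100 nt before the call, CCGGAAG was present at 16.5% of members (14.5 to 18.8) and 10.7% of others (10.0 to 11.3), and CCAAT at 22.9% (20.5 to 25.4) and 18.2% (17.4 to 19.0). There the GC box was less frequent at members, at 46.2% (43.4 to 49.1) and 50.7% (49.7 to 51.7). From 500 nt before the call, the excess of CCAAT over the other gene TSSs was 3.94 percentage points, against 7.11 from 250 nt before.

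Between the partners, the distance of a match from the nearer TSS differed among the letters when all pairs were pooled. ETS matches lay at a median of 46 nt (n = 233 matches), and CCAAT matches at 87 nt (n = 566) and GC boxes at 75 nt (n = 1271). This distance cannot pass the midpoint of a pair, and it was not compared at equal pair distance. ETS letters occurred in 35.2% of pairs at 101 to 200 nt (27.4 to 43.5) and 26.5% at 201 to 300 nt (19.2 to 34.9), with overlapping intervals. CCAAT occurred in 33.1% (25.5 to 41.4) and 56.1% (47.2 to 64.7). At 301 to 500 nt the shares were 27.3% (20.4 to 35.2) for ETS letters and 52.7% (44.4 to 60.9) for CCAAT, so neither change continued. In 77 pairs both occurred, and 43 pairs held no match to any of the letters.

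RNA levels were set beside the letters between the partners. For CCGGAAG the lower partner had a median of 13.8 FPKM (10.6 to 16.5, n = 177) with a match and 9.29 FPKM (7.63 to 10.7, n = 409) without, and the higher partner 45.7 FPKM (37.7 to 57.4) and 33.9 FPKM (30.9 to 37.8). Some other letters gave differences of like size in the lower partner in fewer pairs. For these letters as for CCGGAAG the intervals of the lower partner overlapped. The medians were 16.2 FPKM (9.76 to 18.5, n = 62) with ATGGCGG and 10.1 FPKM (8.72 to 11.4) without, 14.6 FPKM (9.94 to 24.7, n = 59) with CACGTG and 9.95 FPKM (8.49 to 11.4) without, and 13.4 FPKM (8.91 to 17.4, n = 104) with TGACGT and 9.99 FPKM (8.49 to 11.5) without. With and without CCAAT the lower partner stood at 10.6 FPKM (8.72 to 12.5) and 10.4 FPKM (8.69 to 12.0), and with and without a GC box at 10.3 FPKM (8.88 to 12.0) and 10.5 FPKM (7.99 to 12.2). The remaining letters had the lower median with a match, also with overlapping intervals. These were CTCGCGA at 7.96 FPKM (5.96 to 19.5, n = 37) and 10.4 FPKM (9.27 to 11.7), and GCATGCG at 9.86 FPKM (6.64 to 12.5, n = 53) and 10.6 FPKM (9.09 to 11.9). Whether GC content or pair distance has a part in these differences was not tested.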

How the data were processed

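The authors deposited TSS calls of 1 Start-seq library as positions without read counts, so the depth of each single call is unknown. The study reports average read counts for each class of TSS. The submitters' processing notes name cutadapt 1.2.1 and Bowtie 0.12.8 with hg19 for Start-seq, and TopHat2 2.0.4 for RNA-seq. The deposited FPKM values came from Cufflinks 2.2.1 on the merged alignments of 3 replicates. The second Start-seq library and both chromatin assays were left out.

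Calls were named by GENCODE v44 (lifted to GRCh37) starts within 1000 nt on the same strand. Protein-coding genes came first, then genes with an FPKM value, then the nearest start. FPKM was joined by symbol and by locus within 5000 nt. Of 1198 members, 21 had no value, of which 10 were listed on alternative haplotypes only.

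Shares carry exact Clopper-Pearson 95% intervals and medians order-statistic intervals (scipy 1.17.1), and no test over sites was run. uaTSSs and daTSSs were matched by shared identifier. The pair search was tested on simulated data. Named pairs were the 10 with the highest lower partner, 5 with the largest ratio, the 5 shortest and 5 longest, the textbook pairs, up to 5 with 2 uaTSSs or 2 daTSSs, and the pair on each side of the distance limit. Pairs of the gene lists and those printed as sequences were chosen after their values were seen. Members and lists were chosen with earlier results of these data known. Some pairs are not reported here.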

Additional observations from a re-analysis of the deposited data

How the results depend on the processing

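Of 37 values recomputed under alternatives, 25 stayed within their interval or within 1.5 times the count, 11 moved and 1 reversed. With a greatest distance of 500 or 2000 nt, 488 and 667 pairs were found, and with a single TSS per gene 557. The median distance became 242 nt between annotated starts, and the median ratio of partners 1.43 on the log2 scale with both at 1 FPKM or more. The difference in uaTSS share between members and others was -41.7 percentage points, -46.6 with a limit of 500 nt and -2.96 over the length to the pair midpoint, a limit inferred from the calls. For daTSSs it was -24.1, -25.8 both with a limit of 500 nt and against TSSs without another call within 5000 nt, and -4.15 over the same window. Both comparisons over equal windows were added after seeing the data, and in them weaker starts of the others could go uncounted. The GC difference of -1.99 percentage points turned to 2.09 in a window from 500 nt before, which reaches the partner gene, and was -2.65 from 100 nt before. The CCAAT difference of 7.11 fell to 3.94 in the window from 500 nt before, and that of the ETS letters went from 10.6 to 13.8 there and to 6.58 from 100 nt before. No paired analysis was possible because no result comes from a test across replicates. The calls have no read counts and FPKM no replicate values, so a missing antisense call says only that none was listed, and no difference here could be set against replicate error.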
